A study of Mus musculus with 11 samples.

Results

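The primitive and visceral endoderm genes described here are Sox17, Sox7, Foxa2, Hnf4a, Afp, Ttr, Apoa1, Amn, Cubn and Dab2. They were chosen by name, as genes known to be active in the endoderm that surrounds the early mouse embryo, with the GATA factors left out, and they are 10 of the 34570 genes listed in at least 1 of 2 read count tables. All 10 are listed in both tables, that of stem cells with 31518 genes and that of fibroblasts with 29450.

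The study examined mouse cells that lack ATXN7L3, an adaptor protein needed by the deubiquitylases that remove ubiquitin from histone H2B. Poly(A) RNA was sequenced with a stranded protocol from mouse embryonic stem cells (mESCs) and from mouse embryonic fibroblasts (MEFs). The comparison of Atxn7l3-/- with wild-type (WT) cells asks, within each cell type, which transcripts differ when the adaptor is missing. Setting WT MEFs against WT mESCs, and the genotype effect in one cell type against that in the other, was added here to order the levels of the endoderm genes.

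The mESC libraries were 2 WT and 3 Atxn7l3-/-, and the MEF libraries were 3 WT and 3 labelled Atxn7l3-/-. All 11 carry the strain label DBA/2 x C57BL/6. The mESCs came from individual blastocysts and were grown in foetal calf serum with LIF and the inhibitors PD0325901 and CHIR99021 (spelled CH99021 in the labels), first on feeder cells and later without them. This medium favours naive pluripotency, so the stem cells were not placed under conditions that produce endoderm. The MEFs came from individual E10.5 embryos (embryonic day), from which the head and the gastrointestinal tract had been taken away, and were cultured in medium with foetal calf serum. A MEF culture of this kind can hold several cell types of the embryonic trunk. With 2 WT mESC lines, each fit without 1 of them rests on a lone WT sample that is assumed to vary like the other groups.

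Total counts were 45234276 and 44323540 in the WT mESC libraries, and 35050190, 40459852 and 38381348 in the Atxn7l3-/- mESC libraries. They were 49602605, 34515342 and 46722650 in the WT MEF libraries, and 43234808, 45963728 and 38283644 in those labelled Atxn7l3-/-. Levels are given as counts-per-million (CPM) on 1 scale for all 11 libraries, set by the TMM method, and in the order of the replicate numbers. At these depths 3 counts, the limit that a count of 0 allows, correspond to between 0.0605 and 0.0869 CPM before TMM scaling. Such limits and intervals cover counting error only. A difference was called at an adjusted p of at most 0.05, from a test over all genes in edgeR, with an absolute log2 fold change of at least 1.

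Atxn7l3 itself was read at 196 and 202 CPM in the WT mESC libraries and at 3.33, 1.6 and 0.831 CPM in the Atxn7l3-/- mESC libraries. It stood at 86.4, 117 and 104 CPM in WT MEFs and at 56.4, 55.3 and 73.2 CPM in the MEF libraries labelled Atxn7l3-/-. Groups did not overlap in either cell type, but the MEF libraries labelled Atxn7l3-/- kept far more of the transcript than the Atxn7l3-/- mESCs. The log2 fold change was -6.65 ± 0.53 (SE) in mESCs (adjusted p = 0.0211), and -0.74 ± 0.21 in MEFs (adjusted p = 0.0715). The MEF value was -0.1 with a correction for GC content, which was chosen after seeing the data (adjusted p = 0.77), and DESeq2 gave an adjusted p of 0.0227. These 2 adjusted p were the ends of their range over 16 alternatives, while the log2 fold change ran from -0.88 to -0.1. In mESCs the fold held without WT replicate 1 (-6.66) or WT replicate 2 (-6.65), while the call was lost (adjusted p = 0.138 and 0.0659) in fits where no gene of the table was called by edgeR, within a range of 4.56e-37 to 0.138 over 15 alternatives. The effect in MEFs minus that in mESCs was 5.97 ± 0.58 (adjusted p = 0.000666), and WT MEFs minus WT mESCs was -0.96 ± 0.41 (adjusted p = 0.0664). LoxP sites surround most exons of Atxn7l3 in the targeting construct, and mice that carried it were crossed to a deleter strain to give the null allele. Counts per gene do not show which exons the remaining reads come from. Transcript counts do not measure the protein, so these values do not bear on whether it is lost, and the MEF group is named below by its label.

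Marker genes of the labelled cell types were read in the same libraries. The 7 pluripotency markers summed to between 3210 and 4220 CPM in the mESC libraries, led by Tfcp2l1 in 4 libraries and Pou5f1 in Atxn7l3-/- replicate 1. In MEFs 5 of these 7 are listed, with sums of 79.1, 43.9 and 99.4 CPM in WT and 98.7, 91.1 and 52.2 CPM in libraries labelled Atxn7l3-/-; Pou5f1 and Zfp42 were not listed in the MEF table. In the MEF libraries labelled Atxn7l3-/- the leading gene of this list was Tfcp2l1 (log2 fold change 5.36 ± 0.46, adjusted p = 0.00591). The other genes tested had negative values, Sox2 (-3.38 ± 1.7, 0.214), Klf4 (-1.02 ± 0.43, 0.153) and Nanog (-0.39 ± 0.44, 0.554). The median of the list was -0.71 against -0.06 over all genes, and edgeR with the replicate block called Sox2 lower (-4.69, adjusted p = 0.0411). The 9 fibroblast markers summed to 7490, 43000 and 15300 CPM in WT MEFs and 18500, 20200 and 25000 CPM in MEFs labelled Atxn7l3-/-. They were also present in the mESC libraries, at 21.9 and 96.1 CPM in WT and 265, 389 and 270 CPM in Atxn7l3-/-, with Col1a1 the most abundant. Of the 7 fibroblast markers tested in mESCs 1 was called, Col1a1 (log2 fold change 2.54 ± 0.59, adjusted p = 0.0469, with 0.0491 to 0.138 when 1 library was left out). Of the 7, 5 were at an unadjusted p under 0.05 and 4 were called higher by DESeq2 (Col1a1, Col3a1, Lum and Prrx1), and the median was 2.71 against 0.04 over all genes. Y-linked genes, 4 in number, summed to 169 and 397 CPM in WT mESCs and 7.68, 1.58 and 485 CPM in Atxn7l3-/- mESCs, and to under 1 CPM in WT MEF replicate 3 (0.728) but to between 173 and 455 CPM in the other MEF libraries. Y-linked transcripts were thus not balanced between genotypes in either cell type. Epithelial markers (Epcam, Cdh1, Cldn6 and Krt8) summed to between 993 and 1350 CPM in mESCs and to between 0.598 and 3.79 CPM in MEFs. Of these 4, 1 was called by edgeR in mESCs, Epcam (1.45 ± 0.28, adjusted p = 0.0317). That call was kept in 2 of 5 fits with 1 library left out. Krt8 (-2.3 ± 0.65, adjusted p = 0.0719) and Cldn6 (-1.0 ± 0.43, 0.17) were lower without overlap. Cdh1 was higher (0.25 ± 0.19, 0.423), and the median was -0.38. DESeq2 called Epcam higher and Krt8 lower.

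The primitive endoderm is the layer of the blastocyst that sorts out from the pluripotent epiblast, and it gives rise to the visceral and the parietal endoderm of the yolk sac. SOX17 and SOX7 act early in this lineage, FOXA2 and HNF4A drive the visceral programme, and visceral endoderm secretes many of the plasma proteins later made by the foetal liver. It also takes up nutrients from its surroundings through the receptor complex of cubilin and amnionless, with DAB2 as a clathrin adaptor. None of these genes is used in endoderm alone: Sox17 and Sox7 are read in endothelium, Foxa2 in notochord and gut, Hnf4a, Afp, Ttr and Apoa1 in liver, Cubn and Amn in kidney, and Dab2 in macrophages and many mesenchymal cells.

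Dab2 made up most of the sum of the 10 genes. Together they summed to 26.6 and 13.7 CPM in WT mESCs, 14.3, 13.6 and 6.85 CPM in Atxn7l3-/- mESCs, 367, 291 and 198 CPM in WT MEFs and 703, 513 and 284 CPM in MEFs labelled Atxn7l3-/-. Dab2 supplied between 50.9% and 86.7% of the members' counts in an mESC library and between 87.0% and 99.4% in a MEF library. Without Dab2 the sums were 3.54 and 3.14 CPM in WT mESCs and 4.16, 6.67 and 3.1 CPM in Atxn7l3-/- mESCs. In MEFs they were then 14.9, 37.9 and 10.1 CPM in WT and 4.21, 8.5 and 8.37 CPM in libraries labelled Atxn7l3-/-. WT MEF replicate 2 stood apart in this remainder.

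**Figure D1:**
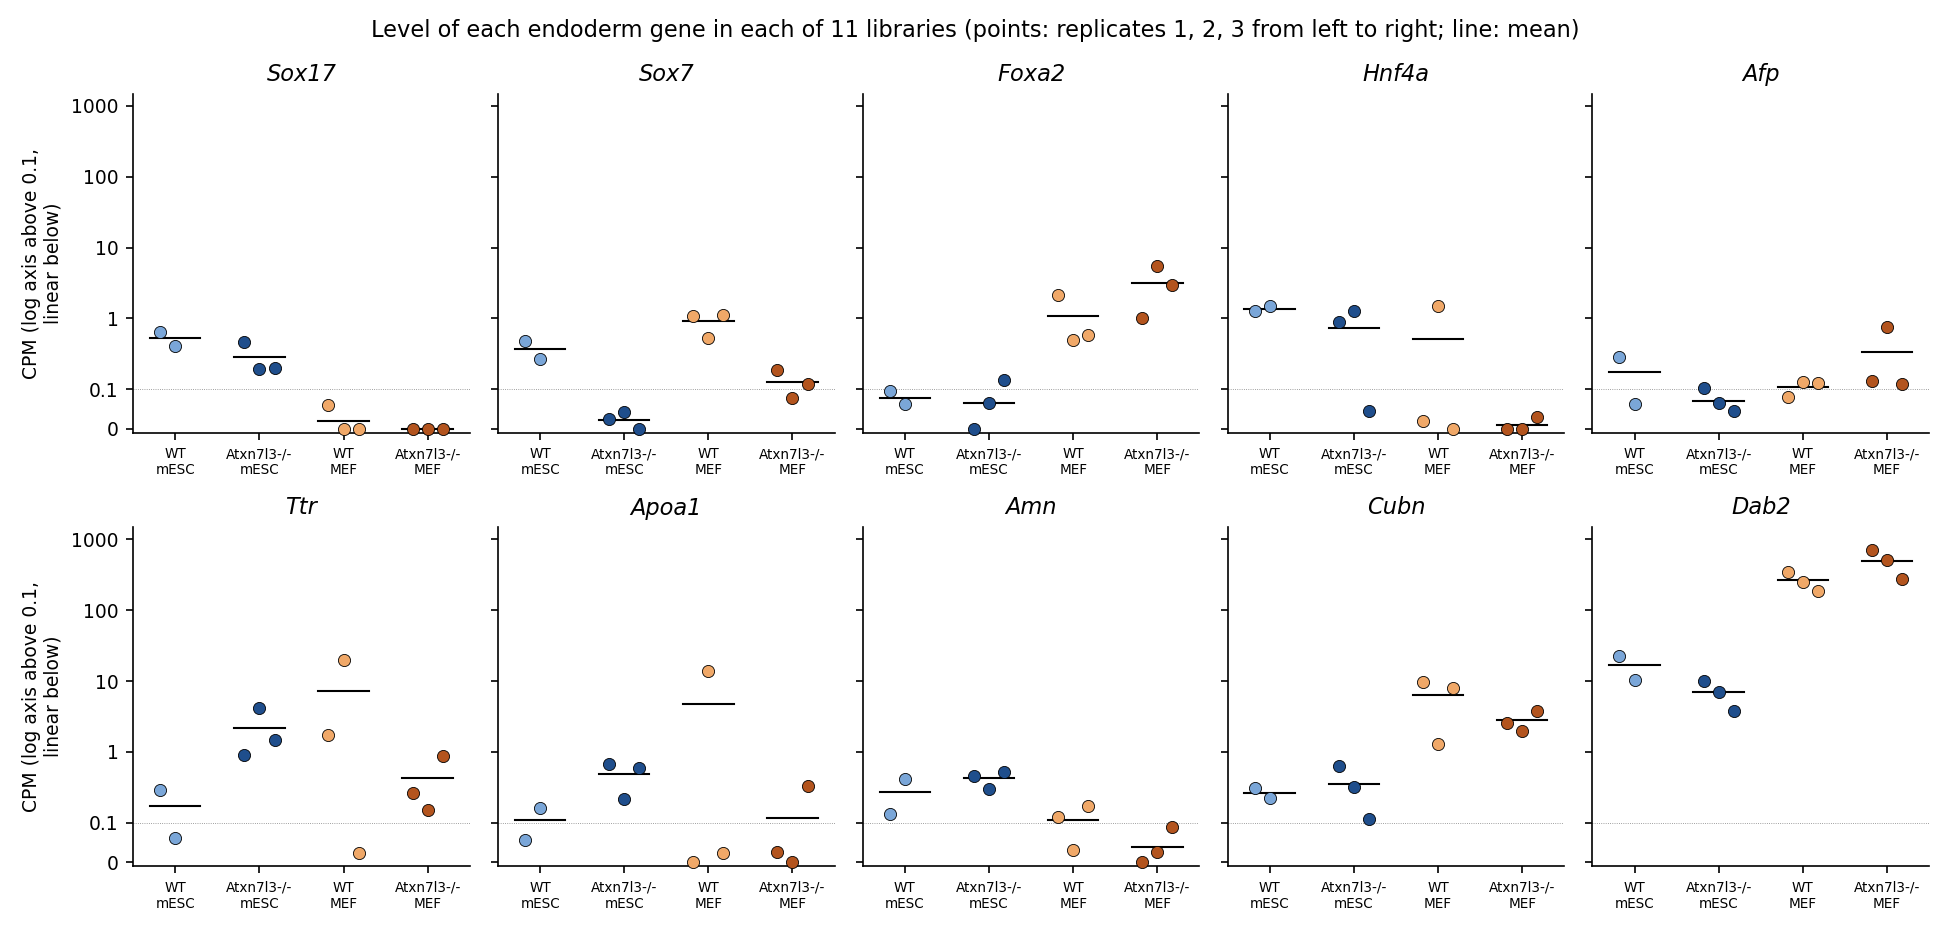
Level of each of the 10 genes in CPM (vertical axis, linear near 0 and logarithmic above) in the 11 libraries (points, grouped by cell type and genotype). Dab2 reached 699 CPM in a MEF library, while Sox17 did not pass 0.647 CPM in any library.

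Between genes, levels were compared as CPM per kb of the median transcript length in the tables. Dab2 was first in each of the 4 groups, at 12.1 ± 6.36 (SD, n = 2) in WT mESCs, 5.0 ± 2.31 (SD, n = 3) in Atxn7l3-/- mESCs, 190 ± 59.8 (SD, n = 3) in WT MEFs and 355 ± 153 (SD, n = 3) in MEFs labelled Atxn7l3-/-. In WT mESCs Hnf4a came next at 1.98 ± 0.228 CPM per kb, clear of Sox17 at 0.351 ± 0.111. Below Sox17, the genes Amn, Afp, Ttr, Apoa1, Sox7, Foxa2 and Cubn followed between 0.266 and 0.0508 CPM per kb. In Atxn7l3-/- mESCs Ttr was second at 1.79 ± 1.45 CPM per kb and Hnf4a followed at 1.07 ± 0.916, within each other's spread, and Sox7 was last at 0.00691 ± 0.00652. In WT MEFs Ttr (5.91 ± 9.0 CPM per kb) and Apoa1 (5.75 ± 9.93) followed Dab2 with an SD above the mean, and Cubn (1.21 ± 0.852), Hnf4a (0.731 ± 1.24) and Foxa2 (0.727 ± 0.62) lay within each other's spread. In MEFs labelled Atxn7l3-/- Foxa2 was second at 2.15 ± 1.53 CPM per kb, ahead of Cubn at 0.536 ± 0.179, and Sox17 was at 0. The authors' own scaled reads per kb gave the same rank to 10 of 10 genes in 3 of the 4 groups and to 8 of 10 in WT MEFs.

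Of the 8 members that passed the filter on low counts in mESCs, 1 was called (Sox7, lower in Atxn7l3-/-), against a background of 6.21% of the 17800 genes tested. Of the 5 that passed in MEFs, 1 was called (Sox7, lower in libraries labelled Atxn7l3-/-), against 8.94% of 15958 genes. In mESCs Foxa2 and Afp did not pass the filter, and in MEFs Sox17, Hnf4a, Afp, Apoa1 and Amn did not. Between WT MEFs and WT mESCs 10 members were tested and 5 called, 4 of them higher in MEFs, against 47.7% of 19312 genes. For the effect in MEFs minus that in mESCs, 0 of 10 were called in edgeR, against 11.3% of 19312 genes. An unadjusted p under 0.05 was reached by 4, against 5972 of the 19312 genes. DESeq2 called 2 (Dab2 and Ttr), against 3932 of the 19312. Within cell types an unadjusted p under 0.05 was reached by 5309 of 17800 genes in mESCs and 5166 of 15958 in MEFs. DESeq2 called 2329 and 3209 of all genes tested there. Counts of this kind given for the lists were not tested against these shares. The median log2 fold change of the members tested was -0.19 in mESCs (0.04 over all genes tested), -1.19 in MEFs (-0.06), 2.51 between the WT groups (-0.01) and -1.87 for the difference of effects (-0.09). These 4 comparisons share libraries, so their values are set side by side and not counted as separate support. The counts over all genes depended on single libraries. In mESCs the 1106 called genes became 0 by edgeR without WT replicate 1 or WT replicate 2 (2932 and 2994 at an unadjusted p under 0.05), 3 without Atxn7l3-/- replicate 1 and 1826 without replicate 2, and DESeq2 called 2329 with all libraries. In MEFs the 1426 became 464, 851 and 197 without WT replicates 1, 2 and 3, and 252, 285 and 1988 without labelled Atxn7l3-/- replicates 1, 2 and 3. For the difference of effects the 2180 became 253 and 322 without WT mESC replicates 1 and 2, 887 and 1074 without Atxn7l3-/- mESC replicates 1 and 3, 1442 without WT MEF replicate 3, and 1173 and 1070 without labelled Atxn7l3-/- MEF replicates 1 and 2.

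**Figure D2:**
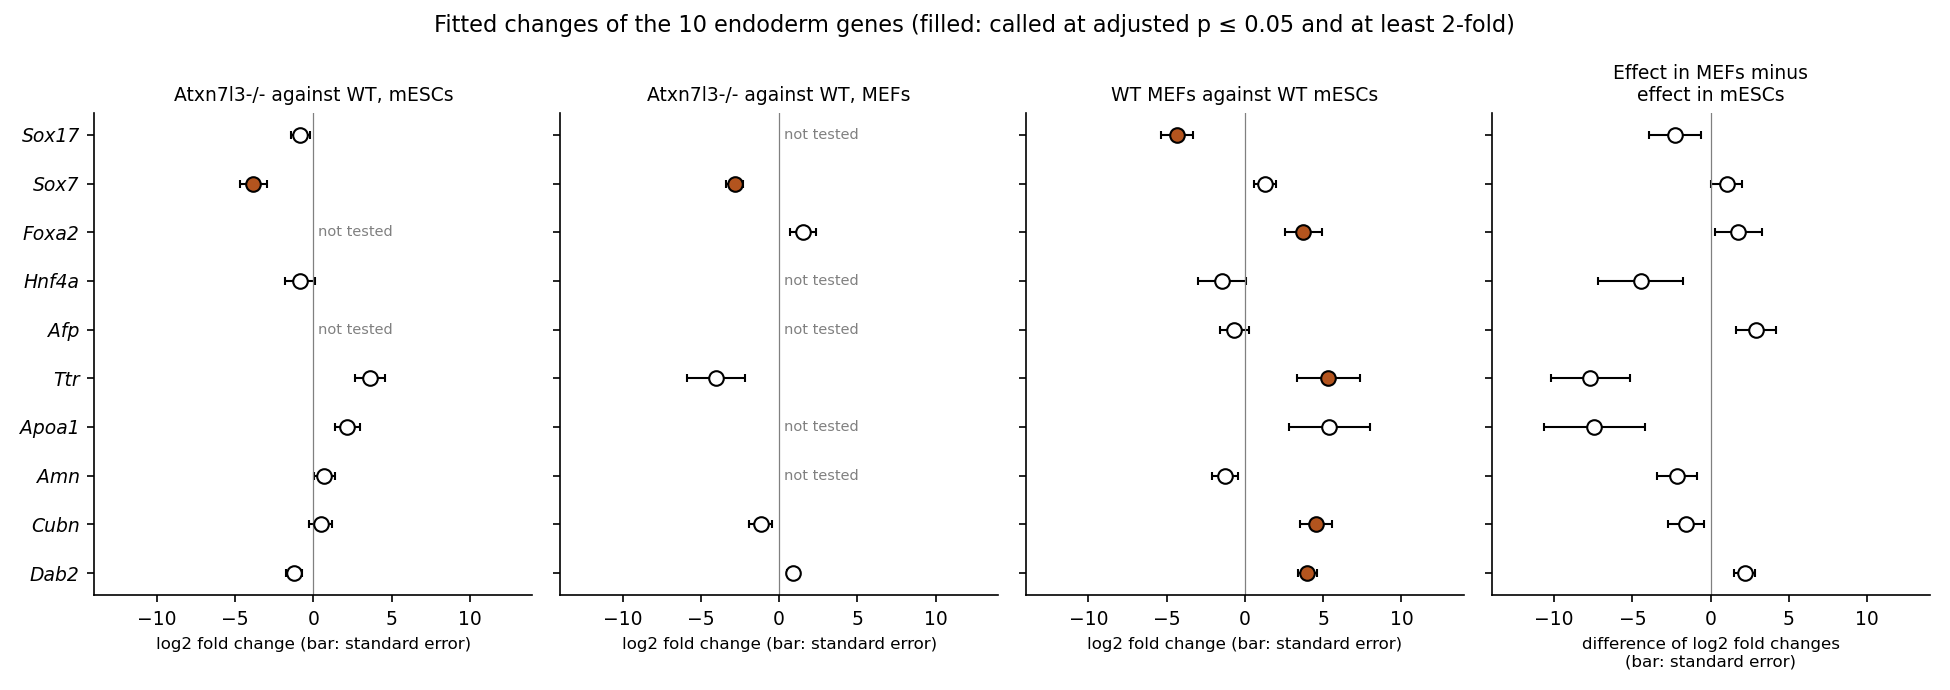
Log2 fold change with its standard error (horizontal axis) of each member in the 4 comparisons, with filled points for called differences. Sox7 is the filled point in each genotype comparison, and 5 points are filled between WT MEFs and WT mESCs.

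Among the transcription factors, Sox7 (ENSMUSG00000063060, mm10 chromosome 14, 63943673 to 63950732) encodes an SRY-related factor of primitive endoderm and early vessels. In mESCs it was read at 0.476 and 0.267 CPM in WT and at 0.0257, 0.0428 and 0 CPM in Atxn7l3-/-, from 25 and 13 counts against 1, 2 and 0. Both WT libraries lay above all 3 Atxn7l3-/- libraries, each of which was under the 3-count limit. Over the group the 38 counts of WT against 3 of Atxn7l3-/- gave a ratio of 16.3 after scaling (95% exact interval 5.17 to 82.6). Sox7 fell by 3.83 ± 0.86 (SE) on the log2 scale in edgeR (adjusted p = 0.0417), a fitted value that depends on the prior count because Atxn7l3-/- libraries held so few reads.

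That call rested on few libraries. It was lost without WT mESC replicate 1 (adjusted p = 0.277), without WT replicate 2 (0.192) and without Atxn7l3-/- replicate 1 (0.116), and all 13 alternatives ran from 0.00778 to 0.277. With 1 library left out the log2 fold change lay between -4.6 and -3.29. With the presence of Y-linked transcripts as a covariate, added after seeing the data, it was -7.1. That fit sets Atxn7l3-/- replicate 3, with 0 counts, alone against WT, since the other Atxn7l3-/- libraries had few Y-linked transcripts. The fit without Atxn7l3-/- replicate 1 called 3 genes in the whole mESC table, and those without a WT library also lost calls there. These losses were therefore not particular to Sox7. Its call was also lost with the replicate block (-3.22, adjusted p = 0.0526 in edgeR), a fit that called 1433 genes. Equal replicate numbers showed no pairing in mESCs (correlations of deviations 0.00777 and -0.172). This is a weak check, since the deviations of 2 WT libraries mirror each other. DESeq2 gave a log2 fold change of -4.02 for Sox7 and no adjusted p.

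In MEFs Sox7 was read at 1.1, 0.53 and 1.12 CPM in WT and 0.185, 0.0766 and 0.12 CPM in the libraries labelled Atxn7l3-/-. All 3 WT libraries lay above all 3 labelled Atxn7l3-/-, with 54, 17 and 46 counts against 7, 3 and 4. The group means were 0.917 ± 0.335 CPM (SD, n = 3) and 0.127 ± 0.0548 CPM (SD, n = 3), and the summed counts of 117 and 14 gave a ratio of 7.55 (95% exact interval 4.32 to 14.2). The fitted log2 fold change was -2.85 ± 0.57 (adjusted p = 0.0343 in edgeR). The call stood without WT MEF replicate 2 (adjusted p = 0.0445) and was lost without WT replicate 1 (0.0737), WT replicate 3 (0.101), or the labelled Atxn7l3-/- replicates 1 (0.0928), 2 (0.125) or 3 (0.0604), and the 15 alternatives covered 0.00286 to 0.125, with log2 fold changes between -3.18 and -2.57. With the Y-linked covariate edgeR gave -2.69 (adjusted p = 0.0971). Only WT replicate 3 lacked Y-linked transcripts, so this fit is close to leaving that library out and is not a separate check. The effect on Sox7 in MEFs minus that in mESCs was 1.03 ± 1.0 (adjusted p = 0.511), so a difference between the cell types was not detected.

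Endothelial markers, which share Sox7 and Sox17, were read beside these values. The 8 markers summed to 78.4, 37.5 and 19.4 CPM in WT MEFs and 22, 10.8 and 5.53 CPM in MEFs labelled Atxn7l3-/-, led by Kdr, Erg and Kdr in WT and by Tek, Tek and Kdr in the others. Of the 6 tested in MEFs 0 were called by edgeR, with 2 at an unadjusted p under 0.05, 2 called by DESeq2 in opposite directions (Kdr lower, Tek higher) and 1 called with the replicate block (Kdr, lower). The median log2 fold change was -1.53 against -0.06 over all genes, and -0.85 without WT replicate 2. Cdh5, which marks vessel walls, was at 0.305, 0.281 and 0.341 CPM in WT MEFs and at 0.0265, 0.0766 and 0 CPM in those labelled Atxn7l3-/-, without overlap. Tek went the other way in 2 libraries, at 0.489, 1.84 and 0.511 CPM in WT and 10.7, 8.42 and 0.239 CPM in those labelled Atxn7l3-/-, and Emcn had a log2 fold change of 0.44 ± 1.17. Erg was at 0 in labelled Atxn7l3-/- replicates 1 and 2 and Cdh5 in replicate 3, while Tie1 was at 0 in WT replicate 1. In mESCs the list summed to 423 and 356 CPM in WT and 354, 360 and 264 CPM in Atxn7l3-/-, nearly all of it Pecam1, which stem cells also express. There 1 of 6 was called, Tie1, at 4.15 and 4.69 CPM in WT and 0.462, 0.107 and 0.157 CPM in Atxn7l3-/- (log2 fold change -4.14 ± 0.68, adjusted p = 0.0256, and 0.0261 to 0.157 with 1 library left out). Cdh5 was at 0.19 and 0.164 CPM in WT mESCs and 0.0257, 0.0214 and 0 CPM in Atxn7l3-/- mESCs, too low for the test there. The part of these cells or genes in the Sox7 result was not tested. In bulk samples fewer cells of a type and less RNA per cell cannot be told apart.

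Sox17 (ENSMUSG00000025902, mm10 chromosome 1, 4490931 to 4497354), the related factor that marks primitive endoderm and later definitive endoderm, was a gene of the mESC libraries. It was read at 0.647 and 0.411 CPM in WT mESCs and 0.462, 0.192 and 0.202 CPM in Atxn7l3-/- mESCs. The genotypes overlapped, since Atxn7l3-/- replicate 1 lay above WT replicate 2, and the log2 fold change was -0.85 ± 0.61 (adjusted p = 0.386), with -0.47 without WT replicate 1 and -1.37 without Atxn7l3-/- replicate 1. In MEFs the only reads were 3 counts in WT replicate 1 (0.0611 CPM), with 0 in the other 5 libraries, which is at or under the limit in both groups and gives no fold.

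Between the WT groups the 54 counts of Sox17 in mESCs and 3 in MEFs gave a ratio of 21.8 (95% exact interval 7.06 to 109). The fitted difference of WT MEFs from WT mESCs was -4.34 ± 1.02 (adjusted p = 0.00668) and was called in all 15 alternatives, with adjusted p from 0.00404 to 0.0424. Without WT MEF replicate 1, which held the 3 reads, it moved to -7.43, a value set by the prior count because the remaining WT MEF libraries were at 0.

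Foxa2 (ENSMUSG00000037025, mm10 chromosome 2, 148042877 to 148046969), a forkhead factor of visceral endoderm, notochord and gut, was instead a gene of the MEF libraries. It was read at 2.12, 0.499 and 0.584 CPM in WT MEFs and 1.01, 5.49 and 2.99 CPM in MEFs labelled Atxn7l3-/-. Labelled Atxn7l3-/- replicates 2 and 3 lay above every WT library and replicate 1 lay inside the WT range. The log2 fold change was 1.54 ± 0.84 (adjusted p = 0.246), and ran from 0.9 without labelled Atxn7l3-/- replicate 2 to 2.54 without WT replicate 1. The GC correction gave 2.65. In mESCs the gene had 5 and 3 counts in WT and 0, 3 and 6 in Atxn7l3-/-, too few for the test there.

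WT MEFs stood 3.72 ± 1.18 above WT mESCs in Foxa2 on the log2 scale (adjusted p = 0.0208), and the groups did not overlap. This call was lost without WT mESC replicate 1 (4.06, adjusted p = 0.0939), WT mESC replicate 2 (3.45, adjusted p = 0.134) or WT MEF replicate 1 (2.74, adjusted p = 0.0597), within 0.00136 to 0.134 over 15 alternatives.

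The notochord and floor plate list, which shares Foxa2, was read beside it. Its summed level was 124, 43.3 and 53.6 CPM in WT MEFs and 7.13, 1.81 and 6.42 CPM in those labelled Atxn7l3-/-, led by Ntn1 in 5 of the 6 libraries. Of the 4 genes tested 2 were called, Foxj1 (log2 fold change -4.97 ± 1.13, adjusted p = 0.0442, and 0.0474 to 0.12 with 1 library left out) and Ntn1 (-3.79 ± 0.87, adjusted p = 0.0451, and 0.0412 to 0.112), with a median of -4.38. Shh was at 0 in labelled Atxn7l3-/- replicates 2 and 3, and T was at 0 in all 3 labelled Atxn7l3-/- libraries and in WT replicate 1. The gut and definitive endoderm list, with 4 of 7 genes in the MEF table, summed to 3.62, 0.499 and 2.41 CPM in WT MEFs and 0.397, 0.0766 and 0.0299 CPM in those labelled Atxn7l3-/-, led by Shh in WT. Its 1 tested gene, Shh, had a log2 fold change of -5.25 ± 1.39 and was not called by edgeR (adjusted p = 0.0607), with 1 gene at an unadjusted p under 0.05, 1 called by DESeq2 and 1 with the replicate block. In mESCs each of these lists had 1 gene called lower, T of 3 tested, at 1.24 and 1.99 CPM in WT and 0.077, 0.0641 and 0.0898 CPM in Atxn7l3-/- (log2 fold change -4.29 ± 0.56, adjusted p = 0.0211, and 0.0182 to 0.142 with 1 library left out), and Cdx2 of 4 tested, at 6.89 and 3.99 CPM in WT and 0.718, 1.11 and 0.18 CPM in Atxn7l3-/- (-2.99 ± 0.71, 0.0479, and 0.0337 to 0.258). Within WT MEFs both sums had their highest and lowest library in common with Foxa2. In the libraries labelled Atxn7l3-/- both sums were lower, and the part of these cells in the Foxa2 level was not tested.

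Hnf4a (ENSMUSG00000017950, mm10 chromosome 2, 163506808 to 163572910) encodes a nuclear receptor that governs visceral endoderm and hepatocyte genes. In mESCs it was read at 1.26 and 1.48 CPM in WT and 0.898, 1.28 and 0.0449 CPM in Atxn7l3-/-. The genotypes overlapped through Atxn7l3-/- replicate 2, and Atxn7l3-/- replicate 3 stood apart with 2 counts where the other 4 libraries had between 35 and 72. The log2 fold change was -0.85 ± 0.96 (adjusted p = 0.583), with -0.29 without Atxn7l3-/- replicate 3 and -1.47 without replicate 2. With the Y-linked covariate, added after seeing the data, Hnf4a was called lower (-4.77), but that fit sets Atxn7l3-/- replicate 3 alone against WT. No other alternative called Hnf4a.

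In MEFs a single library carried Hnf4a. WT replicate 2 was at 1.5 CPM from 48 counts, WT replicates 1 and 3 had 1 and 0 counts, and the libraries labelled Atxn7l3-/- had 0, 0 and 1. The gene did not pass the filter in MEFs and no genotype test was made. WT MEFs minus WT mESCs was -1.47 ± 1.54 (adjusted p = 0.439); without WT MEF replicate 2 it became -6.63 and was called (adjusted p = 0.00676, against 0.00676 to 0.649 over 15 alternatives), a value that depends on the prior count with 1 read left in WT MEFs.

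The secreted proteins showed the same library. Apoa1 (ENSMUSG00000032083, mm10 chromosome 9, 46228580 to 46230466), the main protein of high-density lipoprotein, was read at 0, 14.1 and 0.0244 CPM in WT MEFs and 0.0265, 0 and 0.329 CPM in MEFs labelled Atxn7l3-/-. WT MEF replicate 2 held 452 of the 453 counts of its group. Ttr (ENSMUSG00000061808), a carrier of thyroid hormone and retinol, was at 1.75, 19.8 and 0.0244 CPM in WT MEFs and 0.265, 0.153 and 0.866 CPM in MEFs labelled Atxn7l3-/-. Here too replicate 2 was highest, and WT replicate 3, with 1 count, was the lowest of the 6 libraries. Afp (ENSMUSG00000054932, mm10 chromosome 5, 90490737 to 90508907), the albumin relative that dominates foetal plasma, did not share the pattern. It was at 0.0814, 0.125 and 0.122 CPM in WT MEFs, from 4, 4 and 5 counts, and at 0.132, 0.766 and 0.12 CPM in those labelled Atxn7l3-/-, where replicate 2 held 30 of 39 counts.

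Because Hnf4a, Apoa1 and Ttr were high together in WT MEF replicate 2 and Afp was not, the 250 bases upstream of the start of 3 of these genes are shown, from RefSeq GRCm38.p6, 5′ to 3′ along the gene's strand. The start is that of the RefSeq transcript, which lies 50 bases inside the gene as the count tables place it for Apoa1, 49 bases inside for Hnf4a and 23 bases before it for Afp. Hnf4a has a further RefSeq start 40347 bases inside the gene, whose window is not printed. The windows lie at chr2:163506607-163506856 (plus strand) for Hnf4a, chr9:46228380-46228629 (plus strand) for Apoa1 and chr5:90490464-90490713 (plus strand) for Afp. Capitals mark a match to 1 of 5 short motifs searched on both strands.
Hnf4a: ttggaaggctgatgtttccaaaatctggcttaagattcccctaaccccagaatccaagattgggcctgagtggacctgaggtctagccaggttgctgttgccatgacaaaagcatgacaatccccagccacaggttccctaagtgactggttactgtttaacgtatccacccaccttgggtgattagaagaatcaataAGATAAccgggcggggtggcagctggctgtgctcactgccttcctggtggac
Apoa1: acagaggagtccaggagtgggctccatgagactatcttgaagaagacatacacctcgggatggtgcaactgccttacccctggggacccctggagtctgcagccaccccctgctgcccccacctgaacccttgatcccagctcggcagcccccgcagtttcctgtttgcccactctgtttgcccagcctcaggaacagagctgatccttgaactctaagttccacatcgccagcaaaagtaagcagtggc
Afp: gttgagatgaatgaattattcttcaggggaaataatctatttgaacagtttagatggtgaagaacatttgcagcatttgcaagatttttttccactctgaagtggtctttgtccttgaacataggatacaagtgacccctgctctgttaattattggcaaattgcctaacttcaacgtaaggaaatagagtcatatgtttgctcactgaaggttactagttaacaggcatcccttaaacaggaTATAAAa

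Promoter windows were used for 7 of the 10 members (11 windows, from 32817 in all). None was found for Sox17 and Sox7, and Ttr was left out of the search. The motif AGATAA of GATA factors is in 9.99% of all windows and in 2 of the 11, in the printed Hnf4a window at bases 52 to 47 upstream of the start and in the first of 3 Foxa2 windows at bases 183 to 178. The TATA box letters TATAAA are in 12.4% of all windows and in 2 of the 11, in Afp at bases 7 to 2 and in the same Foxa2 window at bases 208 to 203 on the opposite strand. The letters AACAAT (SOX, 9.42% of all windows), TGTTTAC (FOXA, 3.16%) and CAAAGTCCA (HNF4, 0.384%) are in 0 of the 11. The windows printed for Hnf4a and Afp therefore hold 1 match each and that of Apoa1 none of these letters.

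Liver genes were read beside the secreted proteins. The hepatoblast list summed to 12.5, 376 and 5.82 CPM in WT MEFs and 9.22, 3.29 and 9.68 CPM in MEFs labelled Atxn7l3-/-. Its most abundant gene in WT replicate 2 was Alb, at 323 CPM, against 0.285 and 0.17 CPM in WT replicates 1 and 3 and 0.053, 0.0511 and 5.5 CPM in libraries labelled Atxn7l3-/-. In WT replicate 2 none of the 7 listed genes of this list was at 0, whereas Ahsg was at 0 in WT replicates 1 and 3 and labelled Atxn7l3-/- replicates 1 and 2, and Serpina6 in all 3 labelled Atxn7l3-/- libraries. Afp stayed at 4 counts in WT replicate 2, the library with 323 CPM of Alb. Of 4 hepatoblast markers tested in MEFs 0 were called by edgeR, with 1 at an unadjusted p under 0.05 and 0 called by DESeq2, and their median log2 fold change of -2.46 became -0.38 without WT replicate 2. The part of liver cells in the levels of Hnf4a, Apoa1 and Ttr was not tested.

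**Figure D3:**
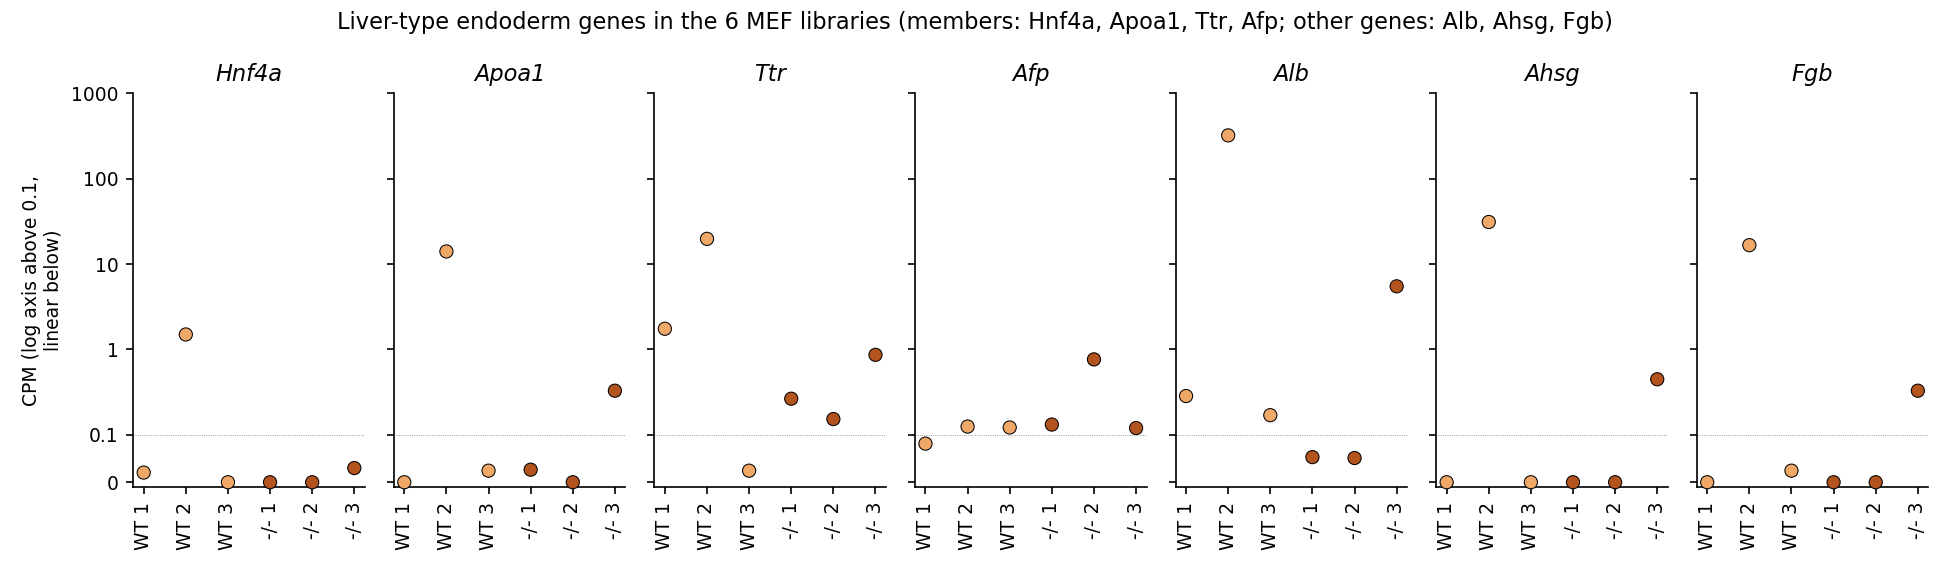
Levels in CPM of Hnf4a, Apoa1, Ttr and Afp and of the liver genes Alb, Ahsg and Fgb in the 6 MEF libraries. WT replicate 2 is the highest library for each of them except Afp, which is highest in labelled Atxn7l3-/- replicate 2.

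Summed over Hnf4a, Apoa1 and Ttr, the MEF libraries gave 1.77, 35.4 and 0.0487 CPM in WT and 0.291, 0.153 and 1.22 CPM in those labelled Atxn7l3-/-. Ttr alone of the 3 passed the filter in MEFs, with a log2 fold change of -4.06 ± 1.85 (adjusted p = 0.178 in edgeR). DESeq2 called it (-4.07, adjusted p = 0.0294), and without WT MEF replicate 2 it was -1.05 (adjusted p = 0.645). These 2 adjusted p were the ends of their range over 15 alternatives, while the log2 fold change ran from -5.09 to -1.05.

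Against WT mESCs, Ttr was higher in WT MEFs by 5.34 ± 2.03 (adjusted p = 0.045), although WT MEF replicate 3 lay below both WT mESC libraries and the groups overlapped. The call was lost without WT MEF replicate 2 (2.34, adjusted p = 0.208), WT mESC replicate 1 (6.79, 0.117) or replicate 2 (4.64, 0.213), Atxn7l3-/- mESC replicates 1 (0.0566), 2 (0.0543) or 3 (0.0572), or labelled Atxn7l3-/- MEF replicate 1 (0.0526), within 0.00121 to 0.213 over 15 alternatives. Apoa1 in WT MEFs minus WT mESCs was 5.38 ± 2.59 (adjusted p = 0.101). It changed sign to -2.99 without WT MEF replicate 2 (adjusted p = 0.188) and was called without WT MEF replicate 1 (5.97, adjusted p = 0.0433), with 0.0433 to 0.312 over 14 alternatives. The sign of the Apoa1 difference thus depended on WT MEF replicate 2, while the Ttr difference shrank without that library and kept its sign.

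In mESCs the secreted proteins were read in a different pattern, in which Ttr and Apoa1 were higher in each Atxn7l3-/- library than in either WT library. Ttr was at 0.286 and 0.0617 CPM in WT mESCs and 0.898, 4.19 and 1.46 CPM in Atxn7l3-/- mESCs. Its log2 fold change was 3.64 ± 0.96, above the threshold of adjusted p in edgeR (0.0614). DESeq2 called the same size of change (3.64, adjusted p = 0.0014), as did edgeR without a filter on low counts (adjusted p = 0.00263), and the 14 alternatives ran from 0.000104 to 0.291. Apoa1 was at 0.0571 and 0.164 CPM in WT and 0.667, 0.214 and 0.584 CPM in Atxn7l3-/- (log2 fold change 2.18 ± 0.79, adjusted p = 0.118). The counts behind Apoa1 were 3 and 8 against 26, 10 and 26. Afp had 15 and 3 counts in WT mESCs and 4, 3 and 2 in Atxn7l3-/- mESCs, and did not pass the filter.

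Alb was near 0 in every mESC library, between 0 and 0.0513 CPM, and the hepatoblast list, at 21 and 19 CPM in WT and 26.5, 32.8 and 16.6 CPM in Atxn7l3-/-, was led there by Hhex or Ahsg. Of its 5 genes tested in mESCs 0 were called by edgeR, with 2 at an unadjusted p under 0.05 and 0 by DESeq2. Apoh (log2 fold change 2.49 ± 0.76, adjusted p = 0.0821) and Apoe (1.18 ± 0.41, 0.109) had positive values in Atxn7l3-/- mESCs, and Prox1 (-1.96 ± 0.57, 0.0746), Apob (-1.52 ± 0.77, 0.23) and Mttp (-0.62 ± 0.45, 0.389) negative ones. None of these was called by edgeR, and DESeq2 called Apoe. The median was 0.06 for the hepatoblast list, against 0.04 over all genes. Their part in the Ttr and Apoa1 levels was not tested.

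For the effect in MEFs minus that in mESCs, Ttr gave -7.69 ± 2.51 (adjusted p = 0.0703), Apoa1 -7.43 ± 3.24 (0.148), Afp 2.92 ± 1.27 (0.147) and Hnf4a -4.47 (0.288). DESeq2 called Ttr (-7.74, adjusted p = 0.00191), edgeR called it without WT MEF replicate 3 (-8.28, adjusted p = 0.0297), and 15 alternatives ran from 0.00191 to 0.25. Without WT MEF replicate 2 the Ttr value was -4.69 (adjusted p = 0.13), the Apoa1 value changed sign to 0.93 and that of Hnf4a to 0.68. That of Afp was 3.02 without this library, and ran from 1.46 without WT mESC replicate 1 to 3.62 without WT mESC replicate 2. Without labelled Atxn7l3-/- MEF replicate 2, which held 30 of the 39 counts of its group, Afp has no value. The remaining members gave -2.26 ± 1.65 for Sox17 (adjusted p = 0.38), 1.77 ± 1.48 for Foxa2 (0.44) and -2.16 ± 1.27 for Amn (0.271). The Sox17 value depends on the prior count, since its only MEF reads were 3 counts in WT replicate 1.

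**Figure D4:**
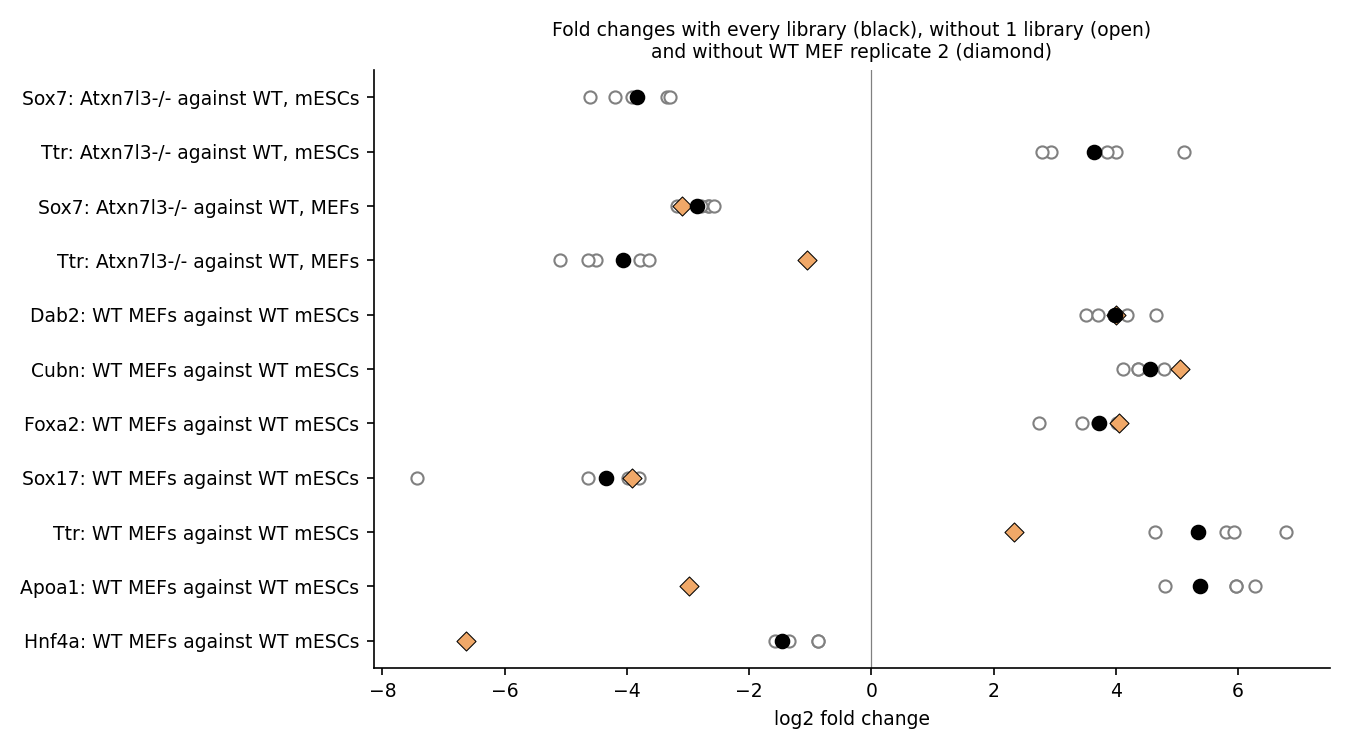
Log2 fold change of members (horizontal axis) with all libraries (black) and with each library left out in turn (open points), with diamonds for the fits without WT MEF replicate 2. For Apoa1 between WT MEFs and WT mESCs the diamond lies at -2.99, on the other side of 0 from the value of 5.38.

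Among the endocytic genes, Dab2 (ENSMUSG00000022150, mm10 chromosome 15, 6299788 to 6440712) links receptors to clathrin and was the most abundant member. In mESCs it had 1209 and 512 counts in WT and 397, 324 and 167 counts in Atxn7l3-/-, with means of 16.8 ± 8.84 CPM (SD, n = 2) and 6.95 ± 3.22 CPM (SD, n = 3). The groups did not overlap, but on the CPM scale WT replicate 2 and Atxn7l3-/- replicate 1 (10.2 CPM) nearly met. The log2 fold change was -1.23 ± 0.5 (adjusted p = 0.151), with -0.54 without WT replicate 1 and -1.7 without WT replicate 2. The summed fibroblast markers were higher in these Atxn7l3-/- libraries, while Dab2, a gene abundant in MEFs, was lower there. Their part in the mESC level of Dab2 was not tested.

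In MEFs Dab2 was at 352, 253 and 187 CPM in WT and 699, 505 and 275 CPM in libraries labelled Atxn7l3-/-. Labelled Atxn7l3-/- replicates 1 and 2 lay above every WT library and replicate 3 lay inside the WT range. Within each pair of equal replicate number the library labelled Atxn7l3-/- was higher. With the replicate block the log2 fold change was 0.83 (adjusted p = 0.0656 in edgeR). Means were 264 ± 83.1 CPM (SD, n = 3) and 493 ± 212 CPM (SD, n = 3), with a log2 fold change of 0.87 ± 0.39 (adjusted p = 0.177 in edgeR), or 0.57 without labelled Atxn7l3-/- replicate 1.

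WT MEFs stood above WT mESCs in Dab2 by 3.98 ± 0.6 on the log2 scale (adjusted p = 0.00035), a difference called in all 16 alternatives with values from 3.52 to 4.65. The effect in MEFs minus that in mESCs was 2.17 ± 0.67 (adjusted p = 0.0583). It was called by DESeq2 (2.14, adjusted p = 0.0215), without WT MEF replicate 1 (2.45, adjusted p = 0.0492) and without labelled Atxn7l3-/- MEF replicate 3 (2.46, adjusted p = 0.0288), and 16 alternatives ran from 0.0215 to 0.254.

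Macrophage markers share Dab2 and summed to 1030, 1190 and 609 CPM in WT MEFs and 6130, 2200 and 813 CPM in MEFs labelled Atxn7l3-/-, with Lyz2 the most abundant in each. In WT MEFs the order of this sum differed from that of Dab2, which was highest in replicate 1. There Adgre1, Mrc1 and C1qc were highest in replicate 2, and Csf1r and Ptprc in replicate 1. Replicates 1, 2 and 3 labelled Atxn7l3-/- had the same order in this sum as in Dab2, and most of the sum was Lyz2, at 5380, 2030 and 718 CPM. In these 3 libraries Adgre1 (158, 58.1 and 20.1 CPM), Csf1r (262, 71.5 and 48.6 CPM), Ptprc (61.5, 16.7 and 9.17 CPM), Mrc1 (66.3, 12.9 and 7.29 CPM) and C1qc (50.4, 3.93 and 2.84 CPM) had that order too. C1qa, which is close to specific for macrophages, was at 78.4, 86.2 and 45.7 CPM in WT MEFs and 67.7, 5.16 and 5.59 CPM in those labelled Atxn7l3-/-, and C1qb at 75.9, 62.3 and 29.4 CPM and 75.2, 1.23 and 1.4 CPM. Of the 8 markers tested in MEFs 0 were called by edgeR, with 1 at an unadjusted p under 0.05 and 1 called by DESeq2 (Lyz2), and the median log2 fold change was -0.05. None of the 8 was at 0 in any MEF library. In mESCs, where 3 of the 8 are listed, they summed to between 1.95 and 8.71 CPM, and 0 of 2 tested were called by edgeR, with 0 at an unadjusted p under 0.05 and 0 by DESeq2.

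Mesothelial markers separated the MEF groups most widely of the lists read here. The 6 genes summed to 19.1, 48.2 and 37.1 CPM in WT MEFs and to 8760, 7320 and 5850 CPM in those labelled Atxn7l3-/-, where Upk1b led, and none was at 0. Of the 6 tested 5 were called higher, among them Lrrn4 (log2 fold change 9.22 ± 0.65, adjusted p = 0.00263), Upk1b (8.4 ± 0.44, 0.000903), Upk3b (7.76 ± 0.8, 0.00793) and Msln (7.67 ± 0.68, 0.00594), with a median of 7.71. In mESCs the list summed to 258 and 82.8 CPM in WT and 200, 252 and 75.8 CPM in Atxn7l3-/-, mostly Msln, and 0 of 5 were called by edgeR, with 2 at an unadjusted p under 0.05 and 2 by DESeq2. Dab2 was highest in 2 of the 3 libraries rich in mesothelial markers. The part of macrophages or of mesothelial cells in the MEF level of Dab2, and of any other member, was not tested.

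**Figure D5:**
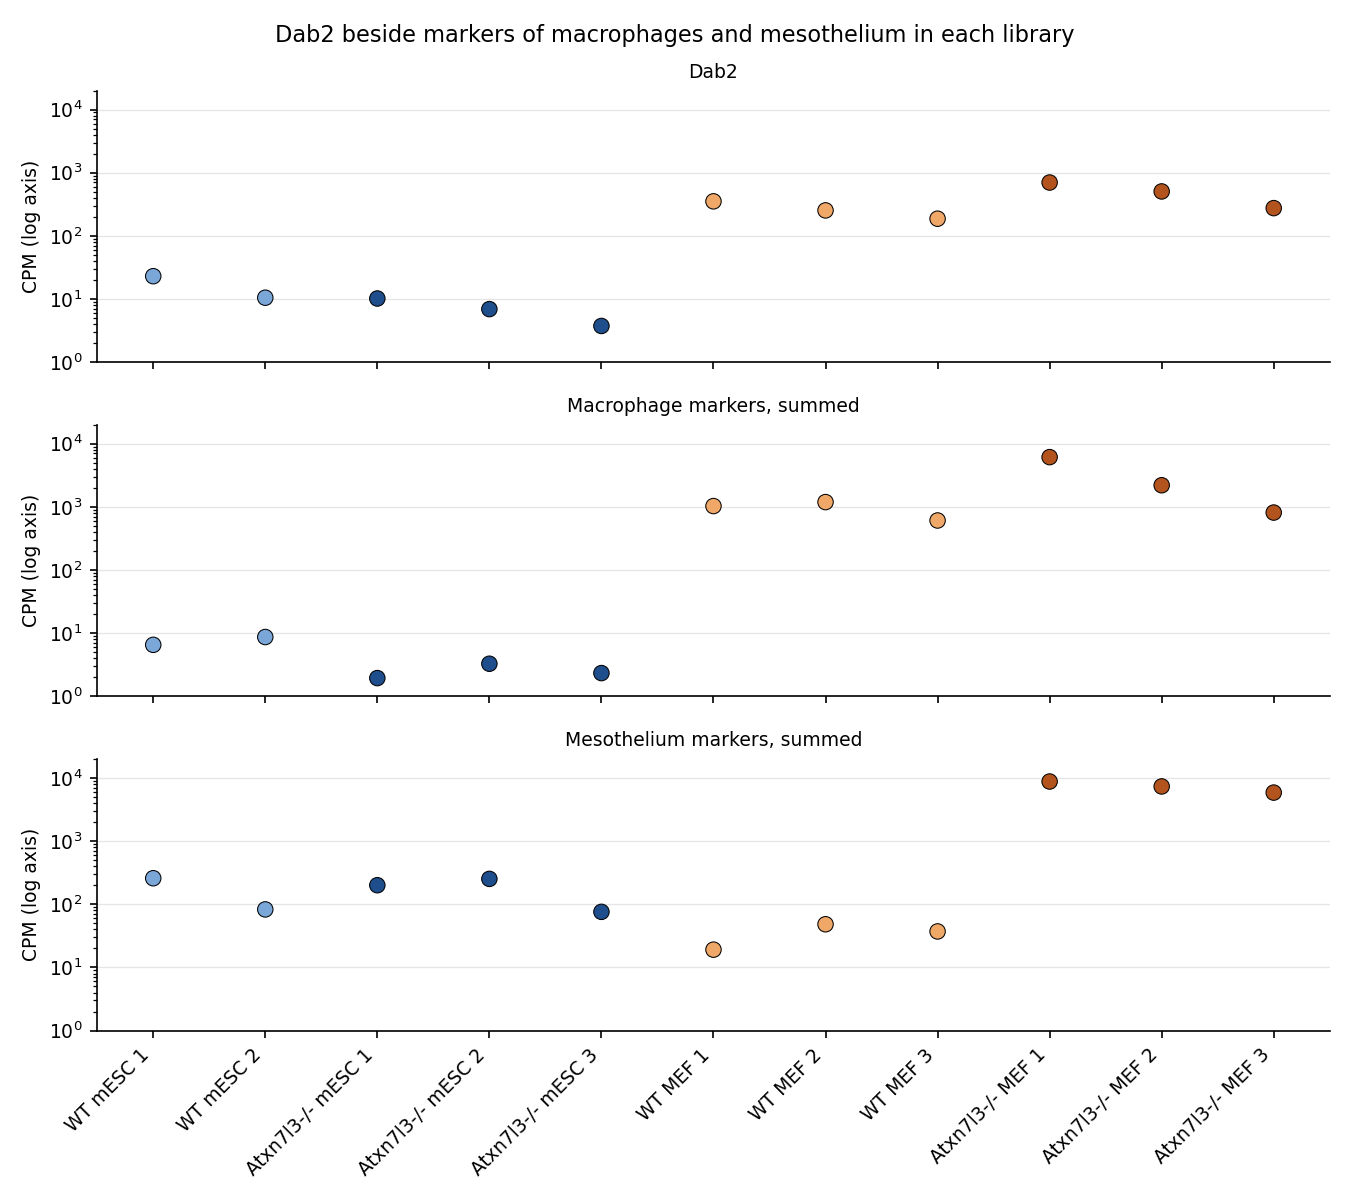
Dab2 and the summed macrophage and mesothelial markers in CPM (logarithmic vertical axis) in the 11 libraries. In MEFs labelled Atxn7l3-/- the mesothelial sum lies between 5850 and 8760 CPM, and Dab2 between 275 and 699 CPM.

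Cubn (ENSMUSG00000026726, mm10 chromosome 2, 13276338 to 13491813) encodes cubilin, the receptor for intrinsic factor with vitamin B12 and for apolipoprotein A-I. It was at 9.69, 1.28 and 8.01 CPM in WT MEFs and 2.6, 1.99 and 3.82 CPM in MEFs labelled Atxn7l3-/-. WT replicates 1 and 3 were highest and WT replicate 2 the lowest of the 6, so the groups overlapped and the log2 fold change of -1.19 ± 0.74 was not called (adjusted p = 0.3). It was -0.72 without WT replicate 1 and -1.65 without WT replicate 2. Lrp2, whose product megalin works with cubilin, was lowest in the same library, at 376, 2.93 and 90.9 CPM in WT MEFs and 188, 112 and 185 CPM in those labelled Atxn7l3-/-. WT MEF replicate 2 was thus the highest of the 6 in Apoa1 and the lowest in Cubn.

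In mESCs Cubn was at 0.305 and 0.226 CPM in WT and 0.641, 0.321 and 0.112 CPM in Atxn7l3-/-, which overlapped (log2 fold change 0.46 ± 0.75, adjusted p = 0.714), and the sign turned without Atxn7l3-/- replicate 1 (-0.26). WT MEFs exceeded WT mESCs by 4.56 ± 1.02 (adjusted p = 0.00377), a difference called in all 15 alternatives with values from 4.12 to 5.05. The effect in MEFs minus that in mESCs was -1.59 (adjusted p = 0.372).

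Amn (ENSMUSG00000021278, mm10 chromosome 12, 111271095 to 111276426) encodes amnionless, which carries cubilin to the cell surface. It did not accompany Cubn into MEFs. Amn had 6, 1 and 7 counts in WT MEFs and 0, 1 and 3 in MEFs labelled Atxn7l3-/-, where Cubn had 476, 41 and 329 and 98, 78 and 128. In mESCs Amn was at 0.133 and 0.411 CPM in WT and 0.462, 0.299 and 0.517 CPM in Atxn7l3-/-, with overlap (log2 fold change 0.71 ± 0.65, adjusted p = 0.5), and the value was 0.11 without WT replicate 1 and 1.69 without WT replicate 2. Its difference between WT MEFs and WT mESCs was -1.27 ± 0.86 (adjusted p = 0.229), or -1.86 and -0.26 without WT mESC replicates 1 and 2.

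Nephric epithelium shares Cubn, Amn and Dab2, and its 7 markers summed to 7.29, 6.14 and 6.89 CPM in WT MEFs and 18.5, 4.93 and 7.74 CPM in those labelled Atxn7l3-/-, led by Emx2 in each. Pax2 was at 1.2, 0 and 0.414 CPM in WT and at 0 in all 3 libraries labelled Atxn7l3-/-, and Wnt9b at 0.611, 0 and 0.146 CPM in WT and 0.212, 0 and 0.0299 CPM in those labelled Atxn7l3-/-. Both thus had the order of Cubn among the WT libraries. Pax8 was highest in WT replicate 2 (0.468 CPM), Lhx1 in labelled Atxn7l3-/- replicate 2 (0.587 CPM) and Emx2 in labelled Atxn7l3-/- replicate 1 (18.1 CPM). The 1 marker tested in MEFs was not called by edgeR, with 0 at an unadjusted p under 0.05 and 0 by DESeq2. In mESCs the list summed to 1.18 and 0.575 CPM in WT and 0.718, 0.342 and 0.764 CPM in Atxn7l3-/-, and 1 of 2 was called, Pax8 (log2 fold change -4.46 ± 1.02, adjusted p = 0.0442, and 0.0494 to 0.264 with 1 library left out). That call was made by edgeR, and DESeq2 called 0 of the 2 genes in mESCs. The part of nephric cells in the Cubn and Amn levels was not tested.

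Sox7, Afp, Amn, Apoa1 and Hnf4a were not called between WT MEFs and WT mESCs, and of these Sox7 was higher in each WT MEF library than in either WT mESC library (1.3 ± 0.69, adjusted p = 0.131). The value of Afp (-0.68 ± 0.93, adjusted p = 0.561) turned to 0.78 without WT mESC replicate 1.

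The wider endoderm genes were read as 5 lists. Of the 14 primitive endoderm genes tested in mESCs 1 was called, Lamb1, a laminin chain of the basement membrane, at 57 and 68.5 CPM in WT and 22.2, 15.7 and 22.7 CPM in Atxn7l3-/- (log2 fold change -1.58 ± 0.25, adjusted p = 0.0233, and 0.0193 to 0.171 with 1 library left out). The median was 0.06, against 0.04 over all genes, and DESeq2 called 2 (Emb and Lamb1). Of 13 tested in MEFs 0 were called by edgeR, with 2 at an unadjusted p under 0.05, 1 by DESeq2 (Lama1) and 1 with the replicate block (Pdgfra), and the median was 0.18 against -0.06. Sparc was the most abundant gene in all 11 libraries, and the list summed to between 2630 and 3970 CPM in mESCs and between 12600 and 21500 CPM in MEFs. Cldn6 was at 0 in 5 of 6 MEF libraries, the exception being WT replicate 2.

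The parietal endoderm list, 11 genes that include Sparc, Lama1 and Lamb1, had 1 lower in mESCs by edgeR (Lamb1 again, median -0.09), with 7 at an unadjusted p under 0.05 and 5 called by DESeq2, 1 higher and 4 lower (Krt18, Krt19, Krt8, Lamb1 and Thbd). In MEFs labelled Atxn7l3-/- it had 1 higher, Krt18 (5.49 ± 0.85, adjusted p = 0.0189, and 0.0217 to 0.0648 with 1 library left out), and 1 lower, Thbd (-2.1 ± 0.32, adjusted p = 0.0177, and 0.0338 to 0.0706), with a median of -0.37, and DESeq2 called 4 (Krt18, Lama1, Pth1r and Thbd). Its sums lay between 1560 and 2840 CPM in mESCs and between 6970 and 15200 CPM in MEFs. Both basement membrane lists were thus dominated by genes that fibroblasts also express.

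Visceral endoderm regulators and signals numbered 13, of which Cer1 was not listed in either table. In mESCs 1 of 11 tested was called, the Wnt antagonist Dkk1, at 6.95 and 4.32 CPM in WT and 0.539, 0.235 and 0.112 CPM in Atxn7l3-/- (log2 fold change -4.21 ± 0.69, adjusted p = 0.0246, and 0.0199 to 0.163 with 1 library left out), and the median was -0.56. DESeq2 called 2 (Dkk1 and Eomes), and 5 were at an unadjusted p under 0.05. In MEFs 1 of 6 was called, Bmp2, at 3.75, 2.96 and 2.97 CPM in WT and 0.768, 0.332 and 0.598 CPM in libraries labelled Atxn7l3-/- (-2.53 ± 0.48, adjusted p = 0.0306), a call lost with any of the 6 libraries left out (0.0504 to 0.0989). The list summed to between 34.5 and 55.6 CPM in mESCs, led by Hhex in 3 of the 5 libraries, and between 3.88 and 16.5 CPM in MEFs. In WT MEF replicate 2 the genes of this list at 0 were Hnf4g and Otx2.

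The 16 secreted proteins of visceral endoderm and liver gave 0 of 8 called in mESCs by edgeR, with 1 at an unadjusted p under 0.05 and 1 by DESeq2 (Apoe), and a median of 0.47. They gave 0 of 7 in MEFs, with 1 at an unadjusted p under 0.05 and 0 by DESeq2. There the median of -2.42 moved to -0.31 without WT MEF replicate 2, the same library as for Ttr. Sums were 194 and 285 CPM in WT mESCs, 492, 292 and 688 CPM in Atxn7l3-/- mESCs, 261, 711 and 201 CPM in WT MEFs and 209, 37.4 and 32.7 CPM in MEFs labelled Atxn7l3-/-. Apoe was the most abundant gene except in WT MEF replicate 2, where Alb was, and where none of the 15 listed genes was at 0. Labelled Atxn7l3-/- replicates 2 and 3 had the least Apoe, at 26.2 CPM or under.

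Of the endocytic uptake genes 1 of 11 was called in mESCs, Lrp1 (1.07 ± 0.25, adjusted p = 0.0477, and 0.0354 to 0.283 with 1 library left out), with a median of 0.47. In MEFs 0 of 11 were called by edgeR, with 5 at an unadjusted p under 0.05, 2 by DESeq2 (Dab1 and Myo6) and 1 with the replicate block (Dab1), and the median was -0.41. The list summed to between 973 and 1150 CPM in mESCs and between 1170 and 2720 CPM in MEFs, led by Lrp1, Lrpap1 or Clcn5. Lrp1, the large lipoprotein receptor of fibroblasts, was lower in each MEF library labelled Atxn7l3-/- (575, 302 and 1160 CPM) than in any WT library (1590, 1170 and 1750 CPM), the opposite of its order in mESCs. Gif, the gene of intrinsic factor and so of a cubilin ligand, was at 0 in 5 of 6 MEF libraries.

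Between WT MEFs and WT mESCs 4669 genes were called higher and 4545 lower of the 19312 tested (47.7% in all), and the counts per list were not tested against this share. The primitive endoderm list had 6 higher and 4 lower of 14 (median 0.9, against -0.01 over all genes), the parietal list 6 higher and 4 lower of 11 (2.56), and the regulators and signals 1 higher and 4 lower of 11 (-2.06). The secreted proteins had 4 higher and 1 lower of 12 (1.92), which became 1 higher and 2 lower of 9 without WT MEF replicate 2 (-0.04), and the endocytic list had 2 higher and 0 lower of 11 (0.27). For the effect in MEFs minus that in mESCs, 11.3% of all genes were called, and the primitive endoderm list had 1 higher and 1 lower of 14, the parietal list 2 and 2 of 11, the regulators and signals 1 and 0 of 11, the endocytic list 0 and 2 of 11, and the secreted proteins 0 and 0 of 12 by edgeR, with 4 at an unadjusted p under 0.05 and 1 by DESeq2.

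Genes with the most similar pattern were sought among 15660 protein-coding genes by Pearson's r of log2 CPM over the 11 libraries, for members at 1 CPM or more in at least 3 libraries. For Dab2 they were Selenop (r = 0.993) and Dock8 (r = 0.992), for Foxa2 Asb5 (0.965) and Atxn7l1 (0.961), for Hnf4a Rtp3 (0.977) and Ucma (0.959), and for Cubn Iffo2 (0.971) and Dtna (0.968). These values are descriptions with no p, over 11 libraries that share 2 cell types, by which Hnf4a did not divide. Sox17, Sox7, Afp, Apoa1 and Amn were too low for the search.

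Other annotated genes overlap some members, and whether the counting used the strand is not given in the sources used here. Hnf4aos runs opposite to Hnf4a and had between 0 and 7 counts in mESC libraries; it was not listed in the MEF table. Gm13270 runs opposite to Cubn, with between 2 and 7 counts in mESC and between 10 and 27 in MEF libraries, and Gm16311 opposite to Dab2, with 0 or 1 count in MEF libraries. These counts are under those of the member itself in most libraries, and reads of the 2 strands cannot be told apart if strand was not used.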

How the data were processed

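RNA from 5 mESC and 6 MEF libraries was counted per gene. The deposited tables hold the authors' raw counts, made with bcl2fastq 2.17.1.14, cutadapt 1.10, STAR 2.5.3a on mm10 and HTSeq 0.6.1p1; the annotation and the strand setting are not given in the sources used here. They also hold the authors' signal, the count divided by a DESeq2 1.16.1 size factor and by the median transcript length in kb. This signal served to check the order of levels per kb, which was made from CPM, and to set the expression threshold. All tests used counts. Other per-sample columns, 6 in the MEF and 5 in the mESC table, were not used. The authors' own fold changes and p-values are held but were not used. A further WT mESC dataset that the study excluded was not analysed here.

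Tests were run in R 4.3.3 with edgeR 4.0.16 (TMM scaling, filterByExpr, quasi-likelihood F test, Benjamini-Hochberg adjustment over all genes tested), within each cell type for genotype and over all 11 libraries and genes listed in both tables for the other comparisons. The other tables and plots were made with Python 3.11.15, pandas 2.3.3, numpy 2.4.6, scipy 1.17.1 and matplotlib 3.10.9. Log2 CPM used a prior count of 2. Cell type cannot be told apart from anything else that differed between the 2 sets of libraries. On simulated data, with 200 genes changed 4-fold in each comparison, the tests recovered 76.5% in mESCs, 22% in MEFs, 45.5% between WT groups and 18% for the difference of effects, so a gene that is not called may still differ. Replicate numbers were checked for pairing by the correlation of deviations from the group mean. For MEFs of the same number these correlated across 15958 genes at 0.473, 0.161 and 0.24, so a fit with a replicate block was also made. In mESCs they correlated at 0.00777 and -0.172, so pairing was not seen. The deviations of 2 WT libraries mirror each other, which makes this a weak check.

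Alternatives were DESeq2 1.42.0, other normalizations, no filter, 10 counts in every library, 10 normalized reads per kb, 1 fit of all libraries, the block and each library left out. A covariate for Y-linked transcripts (over 10 CPM) and a lowess correction for GC content (span 0.3) were chosen after seeing the data. Of the Atxn7l3-/- mESC libraries only replicate 3 was over that level, as was WT, so the covariate fit sets it alone against WT. Of the MEF libraries only WT replicate 3 was under it, so there the covariate takes that library out of the genotype comparison. All 10 members and Atxn7l3 are named in every comparison, and from each list the called genes with the largest changes (up to 4), its most abundant gene and markers at 0; other named genes, such as Cdh5, C1qa, Lrp2 and Shh, were chosen after their values were seen. Some genes that this rule names are not reported here. The members and lists were chosen with earlier results of these data known.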

Additional observations from a re-analysis of the deposited data

Results flagged for a closer look

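The difference between the genotype effect on Atxn7l3 in MEFs and that in mESCs drew attention because the test of the difference itself passed the threshold. It was 5.97 ± 0.58 (SE) on the log2 scale (adjusted p = 0.000666 in edgeR), with the MEF libraries labelled Atxn7l3-/- at 56.4, 55.3 and 73.2 CPM and the Atxn7l3-/- mESC libraries at 3.33, 1.6 and 0.831 CPM. In all 16 alternatives it was called, from 5.6 to 6.61. Whether the remaining MEF transcripts lack exons was not tested, since counts per exon were not used here.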

How the results depend on the processing

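Of 551 values of the members and Atxn7l3 under alternatives, 507 kept their direction and their side of the threshold, 22 lost a call, 15 gained one and 7 changed sign. The sign changed for Cubn in mESCs with the Y-linked covariate (-1.15) and without Atxn7l3-/- replicate 1 (-0.26), for Afp between WT groups without WT mESC replicate 1 (0.78), and for Apoa1 there without WT MEF replicate 2 (-2.99). For the difference of effects it changed for Hnf4a (0.68) and Apoa1 (0.93) without WT MEF replicate 2, and for Sox17 without WT MEF replicate 1 (0.84). In that Sox17 fit no MEF reads were left, so the change of sign holds no information on an effect in MEFs. With each library left out, these values ran from -0.26 to 0.88 (Cubn), from -1.38 to 0.78 (Afp), from -2.99 to 6.28 (Apoa1 between WT groups), and for the difference of effects from -2.79 to 0.84 (Sox17), from -6.53 to 0.68 (Hnf4a) and from -10.32 to 0.93 (Apoa1).

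In mESCs the count of called members, 1 (Sox7), was 2 without a filter, with the GC correction and with the GC correction and block together (Sox7 and Ttr), and 0 at 10 counts in every library or at the expression threshold. It was 2 with the Y-linked covariate (Sox7 and Hnf4a, the latter at -4.77), a fit that sets Atxn7l3-/- replicate 3 alone against WT. The replicate block gave 1 in mESCs (Ttr, 3.6, adjusted p = 0.0473) with Sox7 at -3.22 (adjusted p = 0.0526), and DESeq2 gave 1 (Ttr). With each library left out the count lay between 0 and 1. In MEFs the count of 1 (Sox7) was 2 by DESeq2 (with Ttr), 0 at 10 counts in every library, at the expression threshold and with the Y-linked covariate (Sox7 -2.69, adjusted p = 0.0971), and between 0 and 1 with a library left out; the replicate block, for pairs of equal number, gave 1 (Sox7 -2.84, adjusted p = 0.0281; Ttr -2.51, adjusted p = 0.531). With the block Dab1 (-6.06, adjusted p = 0.0156), Shh (-5.59, 0.0249), Kdr (-2.34, 0.0274), Pdgfra (2.35, 0.0276), Stra6 (-2.8, 0.0378), Sox2 (-4.69, 0.0411) and Dcn (4.38, 0.0249) were also called in MEFs, where leaving out 1 library gave these 7 adjusted p from 0.0262 to 0.574. Between WT groups the count of 5 was 1 at 10 counts in every library (Dab2; fewer genes tested) and between 3 and 5 with a library left out. For the difference of effects the count of 0 was 2 by DESeq2 and between 0 and 1 with a library left out. Over all genes the mESC fits called 1106 of 17800 as reported, 2462 of 31107 without a filter, 780 of 14652 at 10 counts, 1147 with the GC correction, 2118 with the block added to it, 1617 with the covariate, 1433 with the block and 2329 by DESeq2. In MEFs they called 1426 of 15958 as reported, 814 of 13167 at 10 counts, 253 with the covariate, 2153 with the block and 3209 by DESeq2, between WT groups 9214 of 19312 as reported and 5182 of 11887 at 10 counts, and for the difference of effects 2180 of 19312 as reported and 3932 by DESeq2. In 1 fit of all 11 libraries 430 of 19312 genes were called for the genotype in mESCs and 2988 in MEFs. Where no filter is named, the cause was not tested. The covariate and the GC correction were chosen after seeing the data.

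DESeq2 gave no adjusted p for Sox7 in mESCs (-4.02), or for Apoa1 between WT groups (5.42) and for the difference of effects (-7.49). Depth limits the members read at a few counts a library. With 2 WT mESC lines, leaving out 1 assumes that the other varies like the remaining groups.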
